A study of Mus musculus with 6 samples.

Results

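The genes described here are 35 genes of the glutathione and thioredoxin systems, of the enzymes that remove superoxide and peroxides, and of the response driven by the transcription factor NRF2. They were taken by symbol from a table of 24972 genes, and all 35 were found in it. RNA was sequenced from primary macrophages that had been differentiated from mouse marrow monocytes with L929-conditioned medium, which supplies the growth factor M-CSF. The Lcn10-KO macrophages came from mice lacking *Lcn10*, the gene of a secreted lipocalin, and the WT macrophages from wild-type mice. Macrophages of both genotypes were untreated, with 3 libraries per genotype. The labels give neither the strain nor the age of the mice, nor how the knockout allele was made. Strain background and loss of *Lcn10* therefore cannot be told apart for any gene below. The labels also do not say that each library is from its own mouse, and the spread behind the p-values may then be technical only.

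Glutathione is a small thiol made in the cytosol from glutamate, cysteine and glycine, and thioredoxin is a small protein with a reactive pair of cysteines. Both hand electrons to enzymes that reduce hydrogen peroxide and lipid peroxides, and both are returned to their reduced form at the cost of NADPH. NRF2, held in the cytosol and marked for degradation by KEAP1 in resting cells, switches on many of these genes through antioxidant response elements when oxidants or electrophiles modify KEAP1. Macrophages make superoxide themselves through the phagocyte NADPH oxidase, and they rely on these systems to contain it.

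*Lcn10* was listed at 0 in each Lcn10-KO and each WT library, so it cannot check the genotype labels. The libraries held about 19200000 to 24400000 reads in Lcn10-KO and 17900000 to 24700000 in WT, estimated from the value of a single read. All 8 macrophage markers looked at were among the 12091 genes tested, and their summed level was 293764 to 308309 normalized counts in Lcn10-KO and 280139 to 290881 in WT. Of these markers *Adgre1* and *Mertk* were higher and *Csf1r* and *Cd14* lower in Lcn10-KO. The 8 neutrophil markers summed to 349.7 to 384 in Lcn10-KO and 291 to 384 in WT, with *Ly6g* at 0 in every library, and the 6 endothelial markers to 321 to 750.2 in Lcn10-KO and 323 to 455 in WT. The 7 fibroblast markers lay at 3786 to 4269.9 in Lcn10-KO and 2882 to 4472 in WT. The summed markers of erythroid, dendritic and T and NK cells did not exceed 16.4 in any library, those of B cells lay at 33.6 to 40.1 in Lcn10-KO and 17.9 to 32.7 in WT, and those of mast cells, with *Mcpt4*, *Cma1* and *Fcer1a* at 0 throughout, at 46.5 to 58.3 in Lcn10-KO and 30.7 to 43.2 in WT. In these bulk samples fewer cells of a type and less RNA per cell cannot be told apart, and the part of these marker differences in the results below was not tested.

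Lcn10-KO was compared with WT to ask which of these genes are expressed at another level in untreated cells that lack *Lcn10*. *Mgst1*, *Idh1*, *Gstp1*, *Gstm1* and *Prdx1* were higher in Lcn10-KO and *Gclc* was lower, by between 1.13-fold and 1.43-fold for the increases and to 0.847 times WT for *Gclc*. A gene was called when its Benjamini-Hochberg adjusted p in limma, over all 12091 genes tested, was under 0.05. The other 29 members did not pass. All 35 members passed the filter on low values. The 6 calls are 17.1% of the members, against 9.84% of all tested genes. Of all tested genes 4.70% were called higher and 5.14% lower. The members' median level, 1791 normalized counts, lay above the 611 of all tested genes. With only genes of at least 50 normalized counts in 3 libraries the share of all genes called was 12.1%. Under that filter, which leaves out *Gsta3* and *Mgst2*, 8 members were called. The values of the genotypes did not overlap in 17 members, or 48.6%, against 32.4% of all tested genes. The median log2 fold change was 0.00025 over the members and −0.0011 over all genes, with 18 members above 0 and 17 below, and the median absolute log2 fold change was 0.11 over the members and 0.10 over all genes.

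**Figure D1:**
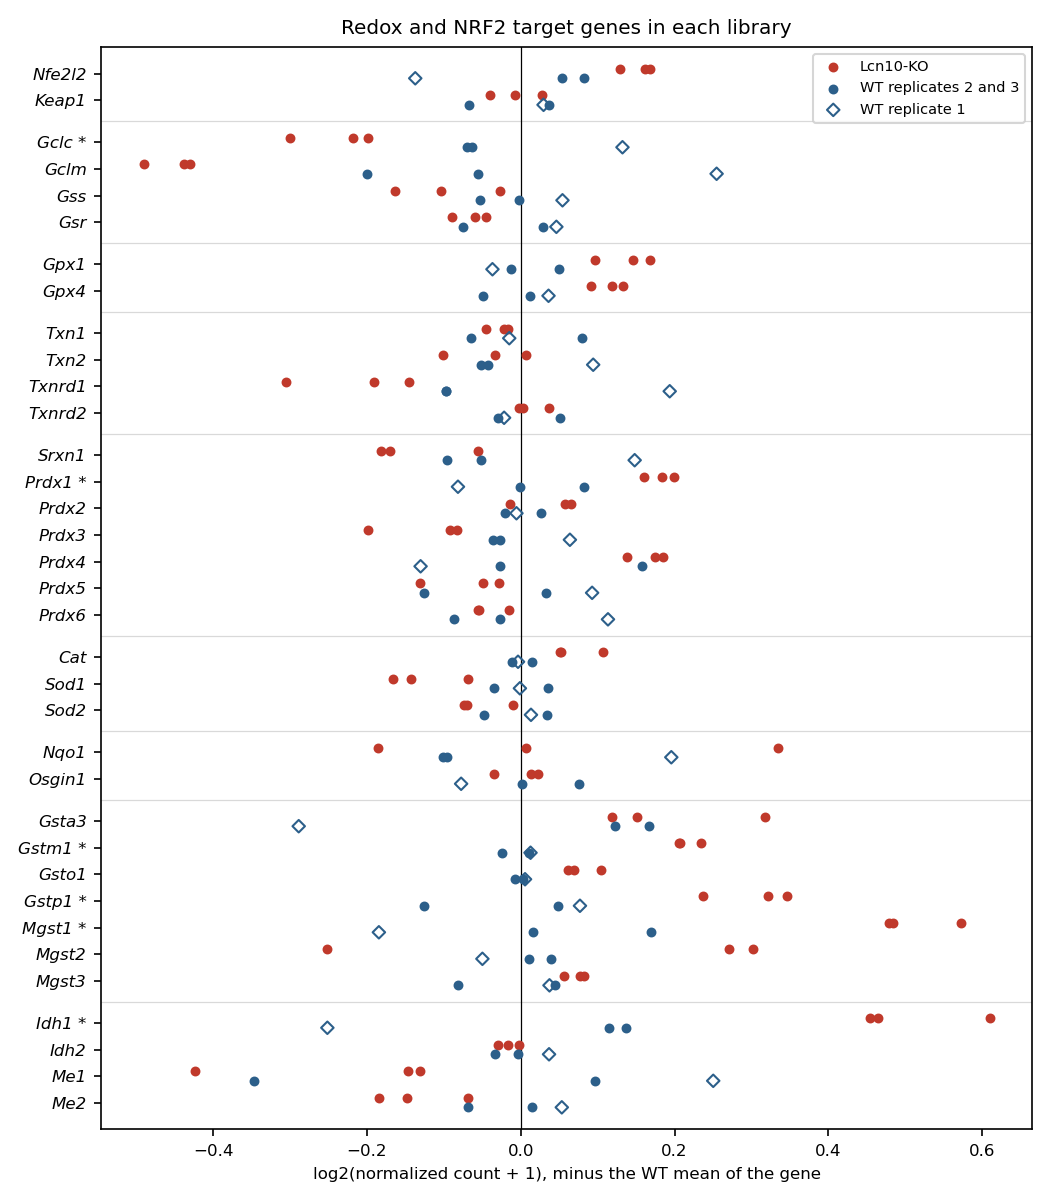
Each point is a library, plotted as log2(normalized count + 1) minus the WT mean of the gene, with Lcn10-KO in red above WT in blue for each gene; WT replicate 1 is an open diamond and an asterisk marks the 6 called genes. Members of the same group stand between grey lines. The glutathione S-transferases lie mostly right of 0 in Lcn10-KO, and the genes of glutathione synthesis lie left of it.

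Set per kilobase of the longest coding transcript, a scale on which levels of different genes can be compared, the members spanned 3 orders of magnitude. *Prdx1* was highest at 15901 normalized counts per kilobase in Lcn10-KO and 14038 in WT. *Gpx1*, *Sod1*, *Txn1* and *Gpx4* came next, at 6036 to 8351 in Lcn10-KO and 5577 to 8203 in WT. At the low end stood *Gsta3* with 14.6 per kilobase in Lcn10-KO and 12.7 in WT, *Mgst2* with 33.1 and 30.1, *Me1* with 59.0 and 70.1, and *Nqo1* with 72.3 and 69.2, each given for Lcn10-KO and then WT. *Nqo1*, the quinone reductase most often used as a readout of NRF2, was thus among the least abundant members in these cells. Between the genotypes, *Mgst1* moved the farthest in this order, with place 17 in Lcn10-KO, against place 23 in WT.

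**Figure D2:**
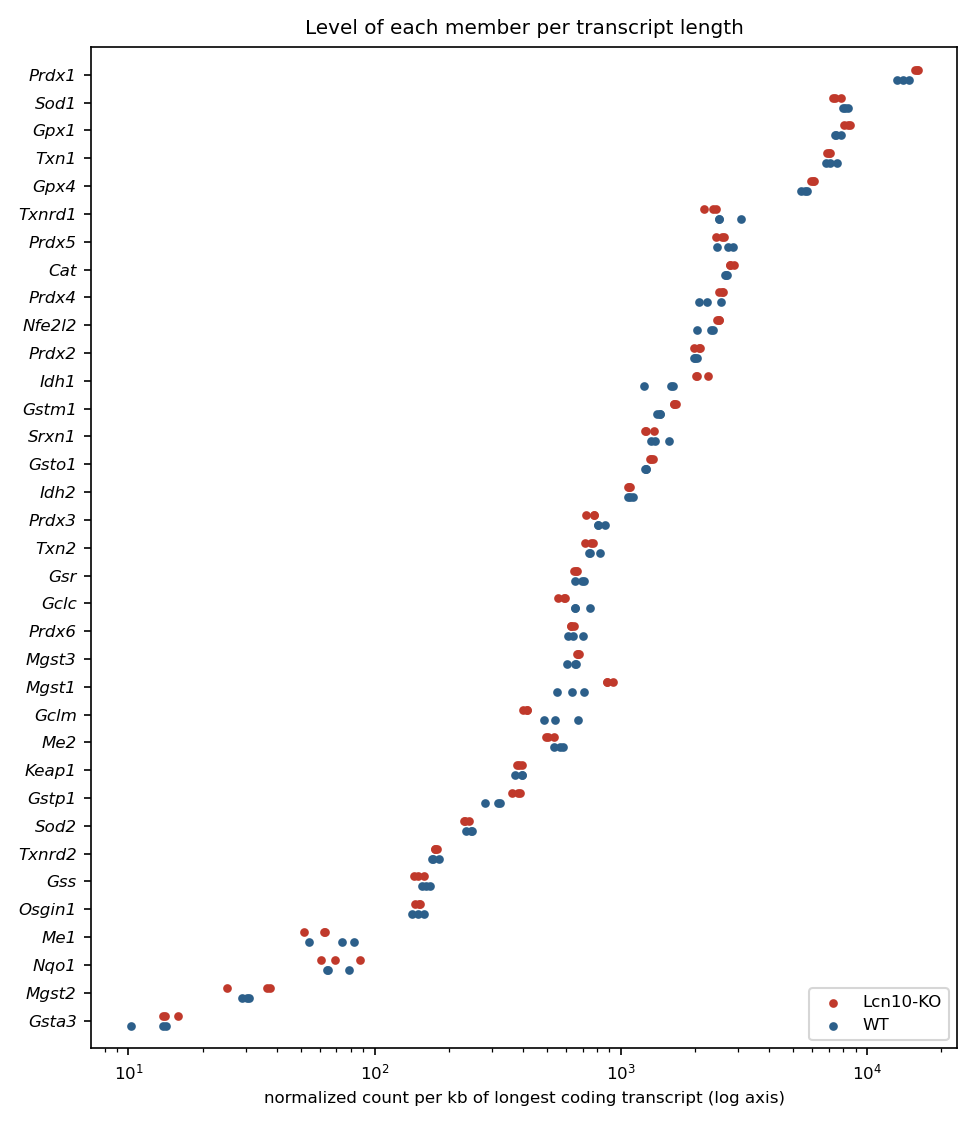
The normalized count per kilobase of the longest coding transcript is shown on a log axis for each of the 35 genes, ordered by the WT mean, with the 3 Lcn10-KO libraries in red above the 3 WT libraries in blue. *Prdx1* stands highest and *Gsta3* lowest in both genotypes, and *Mgst1* and *Idh1* show the clearest gaps between the genotypes.

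Neither *Nfe2l2* nor *Keap1*, the regulators themselves, passed the test. *Nfe2l2*, the gene for NRF2, had 6072, 6209.9 and 6237 normalized counts in Lcn10-KO, against 5050.1, 5767 and 5882 in WT. All 3 Lcn10-KO values lay above the WT values, yet the gene did not pass (log2 fold change 0.15 ± 0.05 (SE), limma adjusted p = 0.0930). *Keap1*, the gene for its inhibitor, had 1367, 1397 and 1433 normalized counts in Lcn10-KO and 1434, 1341 and 1442 in WT, and the 95% interval of its log2 fold change ran from −0.11 to 0.10. Over all tested genes the shares called were 4.70% higher and 5.14% lower. Among 9 further regulators and partners of NRF2, all tested, 1 was higher and 0 were lower. This was *Bach1*, a repressor that competes with NRF2 for the same elements, with 2524, 2592 and 2768 normalized counts in Lcn10-KO and 2229, 2447 and 2319 in WT (log2 fold change 0.17 ± 0.05 (SE), limma adjusted p = 0.0488). That call was lost without any of the 3 Lcn10-KO libraries, without WT replicate 1 and without WT replicate 3, with adjusted p of up to 0.188.

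Glutathione synthesis starts with glutamate-cysteine ligase, whose catalytic subunit is encoded by *Gclc* and whose modifier subunit is encoded by *Gclm*. *Gclc* had 2008, 1896 and 2035 normalized counts in Lcn10-KO, against 2559.8, 2235 and 2226 in WT. The genotypes did not overlap, and *Gclc* was the only member called lower (log2 fold change −0.24 ± 0.06 (SE), limma adjusted p = 0.0244). *Gclm* had the lowest log2 fold change of the 35 members, −0.45 ± 0.11 (SE), with 2331, 2235 and 2318 normalized counts in Lcn10-KO and 3746, 2734 and 3022 in WT. It lay just outside the threshold (limma adjusted p = 0.0503), and WT replicate 1 stood 0.38 log2 units above the mean of the other WT libraries. Without that library *Gclm* passed, with a smaller log2 fold change (−0.33, adjusted p = 0.000198), and it passed without WT replicate 2 as well (−0.55, adjusted p = 0.00479).

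The call of *Gclc* was kept without any 1 WT library, at log2 fold changes of −0.17, −0.27 and −0.27 without WT replicates 1, 2 and 3. It was lost without Lcn10-KO replicate 1, 2 or 3 (limma adjusted p = 0.0669, 0.128 and 0.0775). *Gss*, glutathione synthetase, which adds the glycine, averaged 296 ± 14.1 normalized counts in Lcn10-KO and 317 ± 11.8 in WT (SD, n = 3 each). *Gsr*, glutathione reductase, which returns oxidized glutathione to its reduced form, averaged 1750.2 ± 27.2 in Lcn10-KO and 1831 ± 82.0 in WT. Neither passed (limma adjusted p = 0.463 and 0.426), and all 4 genes of this group had log2 fold changes below 0.

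**Figure D3:**
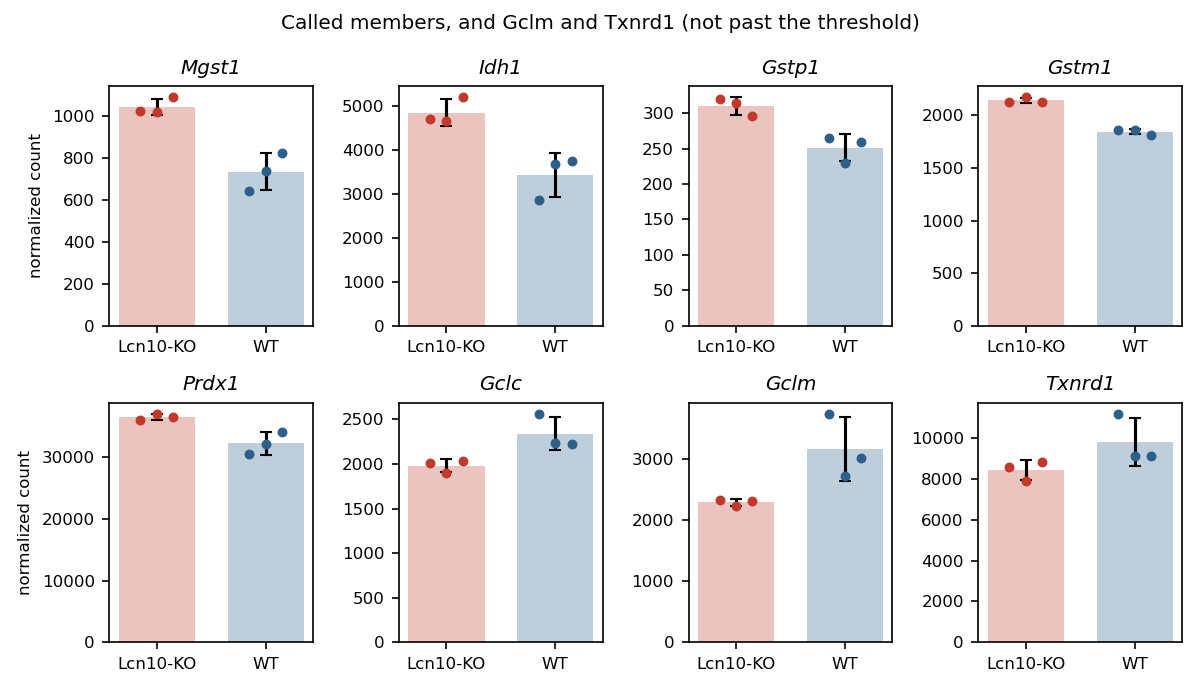
Bars are the mean normalized count of 3 libraries, whiskers the SD and points the libraries, with Lcn10-KO left of WT, for the 6 called members and for *Gclm* and *Txnrd1*, which did not pass. In WT, the first point of *Gclc*, *Gclm* and *Txnrd1* is replicate 1 and lies above the other WT libraries, and that of *Idh1* and *Mgst1* lies below them.

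The glutathione S-transferases join glutathione to electrophiles. Of 7 such members 3 were called higher and 0 lower, and all 7 had log2 fold changes above 0, with a median of 0.20. No further transferase in the list of other glutathione genes, described below, was called. *Mgst1*, a membrane-bound transferase of the endoplasmic reticulum and outer mitochondrial membrane that also reduces lipid peroxides, had the highest log2 fold change of the members, with *Idh1* close behind. It had 1026, 1022 and 1091 normalized counts in Lcn10-KO, against 645, 741 and 824 in WT. Every Lcn10-KO library lay above every WT library, and the level in Lcn10-KO was 1.43 times that in WT (log2 fold change 0.51 ± 0.08 (SE), limma adjusted p = 0.00490). *Mgst1* was the only member that stayed called when any 1 of the 6 libraries was left out, with log2 fold changes of 0.42 to 0.60 and adjusted p of up to 0.0475.

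*Gstm1*, a cytosolic transferase of the mu class, had 2131, 2171 and 2129 normalized counts in Lcn10-KO and 1863, 1861 and 1816 in WT. The spread within a genotype was small, with an SD of 24.2 in Lcn10-KO and 26.7 in WT, against a difference in means of 2144 in Lcn10-KO and 1846 in WT (log2 fold change 0.22 ± 0.04 (SE), limma adjusted p = 0.0104). The call was lost without Lcn10-KO replicate 2 or 3 (limma adjusted p = 0.0699 and 0.0563). *Gstp1*, the pi-class transferase, had 319, 314 and 296 normalized counts in Lcn10-KO, against 265, 229.9 and 259.6 in WT (log2 fold change 0.30 ± 0.09 (SE), limma adjusted p = 0.0439). It passed without WT replicate 1 and was lost without any of the other 5 libraries, with adjusted p of up to 0.163. It was also lost under quantile normalization (adjusted p = 0.0517) and with low values left in (adjusted p = 0.0571).

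Reads of these genes can be shared with near-identical copies. Of the 50-base stretches in the longest coding transcript of *Gstp1*, 62.3% occur in *Gstp2* as well, which reached at most 13.7 normalized counts in any library. *Gstp2*, named after its values were seen, had 2.13, 4.23 and 8.33 normalized counts in Lcn10-KO and 10.2, 13.7 and 12.4 in WT. It did not pass (log2 fold change −1.28 ± 0.47 (SE), limma adjusted p = 0.101). Whether reads were divided differently between these copies in the 2 genotypes was not tested. For *Gstm1* the share found in other transcripts was 23.1%, and for *Mgst1* it was 0%. The remaining transferases did not pass. *Gsto1*, of the omega class, had 1566, 1606 and 1559 normalized counts in Lcn10-KO and 1499, 1495 and 1485 in WT. *Mgst3*, another membrane-bound form, averaged 736 ± 7.06 in Lcn10-KO and 701 ± 34.1 in WT (SD, n = 3 each). Neither overlapped between the genotypes (limma adjusted p = 0.278 for *Gsto1* and 0.469 for *Mgst3*). *Gsta3* and *Mgst2* lay near the filter at 14.9 to 23.1 and 15.1 to 22.6 normalized counts over all 6 libraries, where the error is wide (SE of the log2 fold change 0.27 and 0.28).

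Glutathione peroxidases use glutathione to reduce peroxides. *Gpx1*, the abundant cytosolic and mitochondrial form, had 9148, 9006 and 8702 normalized counts in Lcn10-KO and 7935, 8065 and 8426 in WT. *Gpx4*, which reduces phospholipid hydroperoxides within membranes and protects cells from ferroptosis, had 6085, 6023 and 5909 in Lcn10-KO and 5688, 5362 and 5596 in WT. In both genes all Lcn10-KO values were above all WT values, yet neither passed, with log2 fold changes of 0.14 ± 0.04 (SE, limma adjusted p = 0.0535) and 0.11 ± 0.04 (SE, adjusted p = 0.0911). Without WT replicate 1 *Gpx4* passed (adjusted p = 0.0431), and with the filter of at least 50 normalized counts *Gpx1* passed (adjusted p = 0.0493). Of the 50-base stretches of the *Gpx4* transcript, 61.7% also occur in a pseudogene copy.

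Most peroxiredoxins reduce peroxides with electrons from thioredoxin. *Prdx1*, a cytosolic form and the most abundant member per kilobase, had 35960.3, 36927 and 36542 normalized counts in Lcn10-KO, against 30400.2, 32159 and 34052 in WT. The genotypes did not overlap (log2 fold change 0.18 ± 0.05 (SE), limma adjusted p = 0.0277), and *Prdx1* was called higher, the only one of 7 genes in its group. Its call was lost without Lcn10-KO replicate 1, 2 or 3 (adjusted p = 0.0775, 0.128 and 0.101). Transcripts of other genes hold 10.9% of the 50-base stretches of the longest coding transcript of *Prdx1*. *Prdx4*, the form of the endoplasmic reticulum, had 2491, 2556 and 2574 normalized counts in Lcn10-KO and 2069, 2222 and 2526 in WT, which overlapped, and passed only when WT replicate 3 was left out (adjusted p = 0.0210, against 0.125 with all libraries).

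The mitochondrial form *Prdx3* had a log2 fold change in the other direction, with 1155, 1147 and 1065 normalized counts in Lcn10-KO and 1278, 1199.8 and 1192 in WT, and did not pass (−0.12 ± 0.05 (SE), limma adjusted p = 0.159). *Prdx2*, *Prdx5* and *Prdx6* overlapped between the genotypes, with log2 fold changes of 0.04, −0.07 and −0.04. *Srxn1*, sulfiredoxin, which rescues peroxiredoxins that have been oxidized too far, had 3555, 3526 and 3849 normalized counts in Lcn10-KO and 4434, 3742 and 3860.0 in WT. The values overlapped, with WT replicate 1 the highest of the 6 (log2 fold change −0.14 ± 0.06 (SE), adjusted p = 0.200, and −0.06 without that library).

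None of the 4 thioredoxins and thioredoxin reductases passed in limma, 1 of them at an unadjusted p under 0.05. *Txnrd1*, the cytosolic selenoprotein that reduces thioredoxin, had 8556, 7899 and 8824 normalized counts in Lcn10-KO and 11166, 9128 and 9128 in WT. All Lcn10-KO values lay below the WT values (log2 fold change −0.21 ± 0.08 (SE), limma adjusted p = 0.143), and WT replicate 1 stood 0.29 log2 units above the other WT libraries, without which the log2 fold change was −0.12 (adjusted p = 0.114). *Txn1*, cytosolic thioredoxin, had 7429, 7278 and 7398 normalized counts in Lcn10-KO and 7434, 7179.9 and 7940.0 in WT, which overlapped. *Txn2*, its mitochondrial counterpart, averaged 1536 ± 58.3 in Lcn10-KO and 1582 ± 91.1 in WT (SD, n = 3 each). *Txnrd2*, the mitochondrial reductase, had a log2 fold change of 0.01 with a 95% interval from −0.12 to 0.14.

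Superoxide dismutases turn superoxide into hydrogen peroxide, and catalase breaks hydrogen peroxide down in peroxisomes. None of these 3 passed in limma, 1 of them, *Sod1*, at an unadjusted p under 0.05. *Sod1*, the cytosolic copper and zinc enzyme, had 5013, 4762 and 4686 normalized counts in Lcn10-KO and 5253, 5133 and 5388 in WT, without overlap (log2 fold change −0.13 ± 0.04 (SE), adjusted p = 0.0799). *Cat* had 7253, 7255 and 7538 in Lcn10-KO and 6981, 6942 and 7072 in WT, also without overlap but in the other direction (0.07 ± 0.04 (SE), adjusted p = 0.274). *Sod2*, the mitochondrial manganese enzyme, averaged 1379.9 ± 34.1 in Lcn10-KO and 1429.8 ± 41.7 in WT (SD, n = 3 each). *Sod1* overlaps *Scaf4*, which reached 1055 normalized counts, on the opposite strand, and the strand setting of the counting is not given in the sources used here. Another gene shares 23.1% of the 50-base stretches of the *Sod1* transcript.

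*Nqo1* had 108, 94.0 and 135 normalized counts in Lcn10-KO and 123, 100.1 and 99.8 in WT, with a 95% interval of its log2 fold change from −0.29 to 0.39. *Osgin1*, an NRF2 target that limits cell growth, had 294, 306 and 304 normalized counts in Lcn10-KO and 285, 318 and 302 in WT. Neither separated the genotypes, and for *Nqo1* the interval is wide enough to hold changes as large as that of *Gstp1*.

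Isocitrate dehydrogenases and malic enzymes feed the NADPH pool, apart from *Me2*, whose enzyme mainly uses NAD. *Idh1*, the NADP-dependent form of the cytosol and peroxisomes, had 4702, 4671 and 5201 normalized counts in Lcn10-KO, against 2863, 3691 and 3747 in WT. The genotypes did not overlap, and the level in Lcn10-KO was 1.42 times that in WT (log2 fold change 0.51 ± 0.11 (SE), limma adjusted p = 0.0402). WT replicate 1 was the lowest library, 0.38 log2 units under the other WT libraries, and without it the log2 fold change was 0.38 (adjusted p = 3.43e-05). The call was lost without Lcn10-KO replicate 1, 2 or 3 (adjusted p = 0.0921, 0.115 and 0.113) and with low values left in (adjusted p = 0.0585).

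*Idh2*, the mitochondrial NADP-dependent form, had 1891, 1874 and 1909 normalized counts in Lcn10-KO and 1962, 1907 and 1869 in WT, with a 95% interval of its log2 fold change from −0.11 to 0.08. *Me1*, cytosolic malic enzyme, had 205, 208 and 169 in Lcn10-KO and 271, 179 and 243 in WT, which overlapped, and passed only without WT replicate 2 (log2 fold change −0.41, limma adjusted p = 0.0383, against −0.23 and 0.360 with all libraries). Other genes share 26.5% of the 50-base stretches of the *Me1* transcript. *Me2*, mitochondrial malic enzyme, averaged 1355 ± 55.8 in Lcn10-KO and 1486 ± 63.5 in WT (SD, n = 3 each; limma adjusted p = 0.123).

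**Figure D4:**
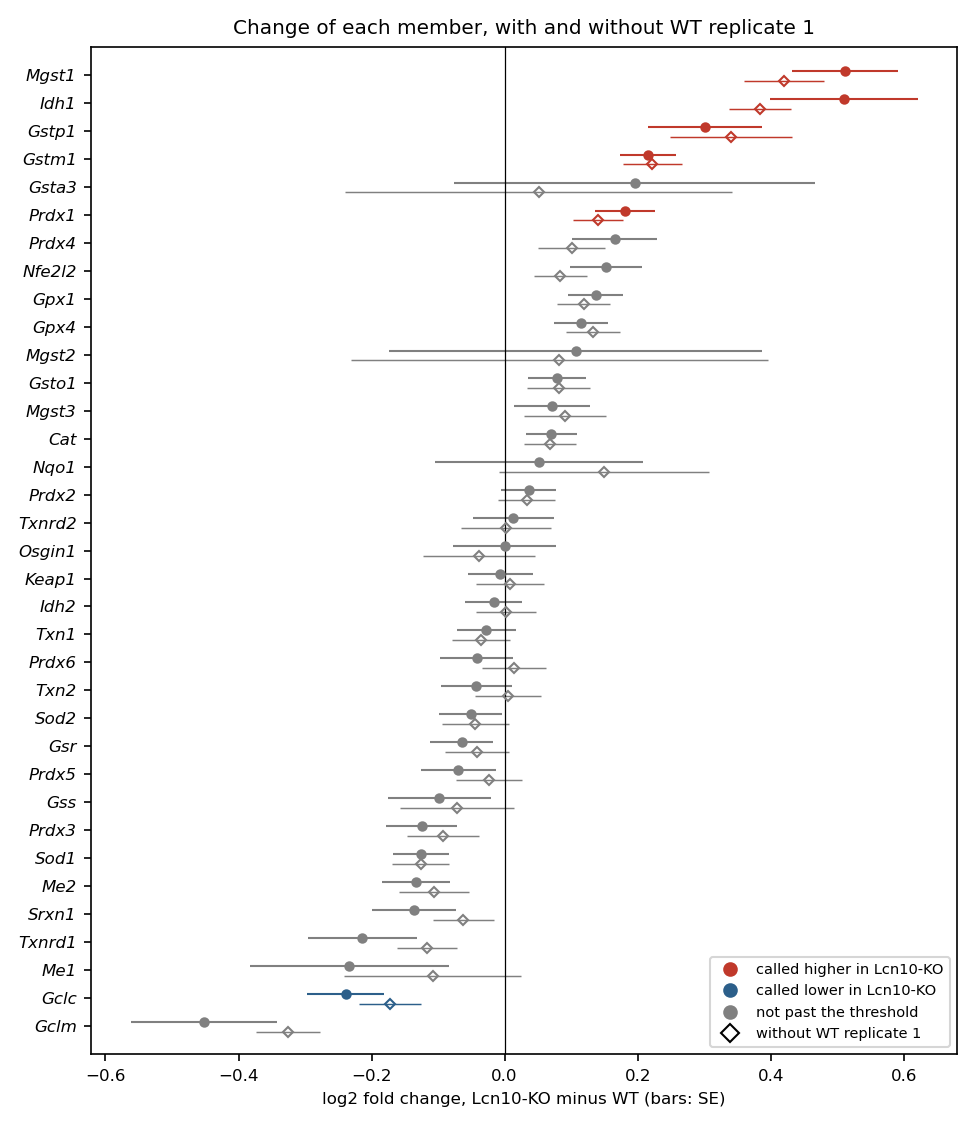
Filled circles are the log2 fold changes (Lcn10-KO minus WT, bars ± SE) of the 35 members with all 6 libraries, ordered by size, and open diamonds the same without WT replicate 1; colours mark the calls made with all libraries. *Mgst1* and *Idh1* lie at the top and *Gclm* at the bottom, and for *Gclm*, *Txnrd1*, *Srxn1*, *Idh1* and *Mgst1* the diamond lies nearer to 0.

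WT replicate 1 lay on the side away from Lcn10-KO, measured from the other WT libraries, in 22 of the 35 members, against 57.4% of all tested genes. In 18 members, or 51.4%, it lay outside both other WT libraries on that side, against 45.0% of all genes. Of the 6 called members it lay on that side in 4, against 88.1% of all called genes. It lay outside both other WT libraries on that side in 4 of the 6, against 79.1% of all called genes. These calls were made with WT replicate 1 included. Without that library 8 members were called. These were the 6 named above with *Gclm* and *Gpx4* added.

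The promoters of the members were searched for the core of the antioxidant response element. Windows of 300 bases, from 250 before to 50 after the transcript start, came from RefSeq (GRCm38.p6) and existed for 31 of the 35 members. The letters TGACNNNGC on either strand were found in 9 of the 31, or 29.0%, and in 17.1% of 9580 tested genes with a window. A different motif of related letters, TGAGTCAGC, which does not match the first, was found on either strand in 3 of the 31, against 0.491% of the 9580 genes. Both motifs were chosen after the expression values had been seen. The members were listed in part as genes of the NRF2 response, so higher shares among them can follow from that choice. The difference in shares was not tested. The window of *Srxn1* held both motifs, at separate positions. Of the 5 members called higher, *Mgst1* and *Prdx1* held the first motif and *Gstp1* the second, while *Gstm1* and *Idh1* held neither in their windows. *Gclc* had no window here.

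The matches are shown so that the letters can be compared between members that were called higher in Lcn10-KO, the first 3 below, and members that did not pass. Each is read 5′ to 3′ along the strand of the match with 10 bases on either side, and capitals mark the matched letters. *Gstp1*, *Osgin1* and the first entry of *Srxn1* show the second motif.
Mgst1: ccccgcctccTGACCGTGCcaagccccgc
Prdx1: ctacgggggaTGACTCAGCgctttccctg
Gstp1: tccaacgtgtTGAGTCAGCatccggggcg
Gclm: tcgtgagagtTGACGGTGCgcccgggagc
Txnrd1: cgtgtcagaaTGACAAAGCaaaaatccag
Srxn1: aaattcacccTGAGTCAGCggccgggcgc
Srxn1: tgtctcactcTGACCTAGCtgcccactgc
Me1: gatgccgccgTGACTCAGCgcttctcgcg
Osgin1: ttcataagcgTGAGTCAGCaggggcccct
Sod1: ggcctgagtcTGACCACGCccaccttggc
Nfe2l2: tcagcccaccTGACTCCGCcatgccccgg
Gsta3: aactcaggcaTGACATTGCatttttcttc

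*Prdx1* and *Me1* carried the same 9 letters, TGACTCAGC, although *Prdx1* was higher in Lcn10-KO (1.13-fold) and *Me1* did not pass. *Gstp1*, *Srxn1* and *Osgin1* likewise shared TGAGTCAGC, with log2 fold changes of 0.30, −0.14 and 0.00. The matches began 133 bases before the transcript start in *Prdx1*, 134 before it in *Gclm*, 74 before it in *Gstp1* and 56 before it in *Mgst1*. A match of letters does not show that a factor binds there, and elements outside these windows were not searched.

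Whole windows are given for the 3 members called higher that held a match, so that the match can be seen in its context. They lie at chr6:138140277-138140576 (plus strand) for *Mgst1*, chr4:116685349-116685648 (plus strand) for *Prdx1* and chr19:4037863-4038162 (minus strand) for *Gstp1*, on GRCm38.p6, each read along the strand of its gene with the match in capitals. In *Mgst1* and *Prdx1* the match is on the opposite strand, so the capitals there are its reverse complement.
Mgst1: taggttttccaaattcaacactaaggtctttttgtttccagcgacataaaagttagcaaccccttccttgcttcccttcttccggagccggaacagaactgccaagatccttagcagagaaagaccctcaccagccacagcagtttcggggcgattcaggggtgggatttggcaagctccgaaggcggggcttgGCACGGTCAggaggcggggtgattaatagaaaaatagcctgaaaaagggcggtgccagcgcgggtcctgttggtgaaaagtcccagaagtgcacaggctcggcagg
Prdx1: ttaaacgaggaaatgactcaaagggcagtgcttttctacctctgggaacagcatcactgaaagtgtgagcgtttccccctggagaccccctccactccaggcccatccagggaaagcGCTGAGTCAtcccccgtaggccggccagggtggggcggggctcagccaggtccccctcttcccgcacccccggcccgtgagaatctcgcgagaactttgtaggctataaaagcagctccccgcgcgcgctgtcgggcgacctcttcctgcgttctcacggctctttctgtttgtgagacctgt
Gstp1: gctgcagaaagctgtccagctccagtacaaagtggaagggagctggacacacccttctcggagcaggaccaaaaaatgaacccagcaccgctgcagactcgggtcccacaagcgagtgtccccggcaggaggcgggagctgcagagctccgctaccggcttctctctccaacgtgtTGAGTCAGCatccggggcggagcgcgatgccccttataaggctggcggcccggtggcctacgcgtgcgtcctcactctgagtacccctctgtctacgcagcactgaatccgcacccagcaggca

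The called members lie on several chromosomes. In the GENCODE annotation of GRCm38, *Mgst1* spans 138140316 to 138156755 on chromosome 6 (plus strand), *Idh1* 65158616 to 65186500 on chromosome 1 (minus strand) and *Gstp1* 4035407 to 4037985 on chromosome 19 (minus strand). *Gstm1* spans 108012255 to 108017973 on chromosome 3 (minus strand), *Prdx1* 116685544 to 116700822 on chromosome 4 (plus strand) and *Gclc* 77754535 to 77794485 on chromosome 9 (plus strand). *Gclm* lies on chromosome 3 as well, at 122245557 to 122270732 (plus strand).

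Other genes of the same pathways were taken from lists fixed by name, which were chosen with earlier results of these data known. The counts of each list below stand beside 4.70% of all tested genes called higher and 5.14% called lower. Of 17 tested genes in the list of other NRF2 targets, 0 were higher, 4 lower and 13 did not pass, with a median log2 fold change of 0.03. *Abcc4*, an exporter of organic anions, had 649.6, 648 and 684 normalized counts in Lcn10-KO, against 901, 816 and 828 in WT (log2 fold change −0.36 ± 0.06 (SE), limma adjusted p = 0.00482). *Abcc1*, which exports glutathione conjugates, averaged 4275 ± 129 in Lcn10-KO and 5201 ± 391 in WT, and *Akr1b8*, an aldo-keto reductase, 1463 ± 65.2 in Lcn10-KO and 1761 ± 13.1 in WT (SD, n = 3 each). *Slc3a2*, the heavy chain of the cystine and other amino acid transporters, averaged 4972 ± 49.3 in Lcn10-KO and 6018 ± 625 in WT. Their log2 fold changes were −0.28, −0.27 and −0.27 (limma adjusted p = 0.00920, 0.00637 and 0.0253). *Hmox1*, heme oxygenase, named here after its values were seen, had 14029, 12236 and 13085 normalized counts in Lcn10-KO and 17524, 14219 and 14289 in WT and did not pass (adjusted p = 0.167).

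*Abcc4* stayed called without any 1 library. *Abcc1* and *Akr1b8* were lost without Lcn10-KO replicate 2 or 3, with limma adjusted p of up to 0.0666 and 0.0534, and *Slc3a2* without any of the Lcn10-KO libraries, with adjusted p of up to 0.106. Among the genes looked at, known NRF2 targets were called in both directions, these 4 and *Gclc* lower in Lcn10-KO, and *Gstp1*, *Gstm1* and *Prdx1* among those higher. Of the genes in that sentence only *Abcc4* stayed called without any 1 library. Whether NRF2 activity differed between the genotypes was not tested.

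Among 26 tested genes in the list of other glutathione genes, 1 was higher and 1 lower. *Gpx3*, a secreted glutathione peroxidase, had 344, 399.6 and 408 normalized counts in Lcn10-KO and 241, 194 and 238 in WT, a level 1.71 times that in WT (log2 fold change 0.78 ± 0.10 (SE), limma adjusted p = 0.00128), and stayed called without any 1 library. *Esd*, S-formylglutathione hydrolase, averaged 10242 ± 239.5 in Lcn10-KO and 11924 ± 925 in WT (SD, n = 3 each; limma adjusted p = 0.0250), a call lost without any of the Lcn10-KO libraries and without WT replicate 3 (adjusted p of up to 0.125).

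Of 24 tested genes in the list of other thioredoxin and glutaredoxin genes, 1 was higher and 1 lower. *Glrx*, cytosolic glutaredoxin, which removes glutathione from proteins, had 3781, 3587 and 3259 normalized counts in Lcn10-KO and 4876, 4341 and 4510.4 in WT (log2 fold change −0.37 ± 0.06 (SE), limma adjusted p = 0.00538). It stayed called without any 1 library. *Txndc16*, a thioredoxin-domain protein of the endoplasmic reticulum, averaged 870.3 ± 37.3 in Lcn10-KO and 704 ± 78.5 in WT (SD, n = 3 each; limma adjusted p = 0.0283) and was lost without any of the Lcn10-KO libraries (adjusted p of up to 0.125).

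The list of NADPH supply and neighbouring dehydrogenases had 1 of 19 tested genes higher and 4 lower. *Nnt*, the mitochondrial transhydrogenase that makes NADPH from NADH, had 1457, 1377 and 1425 normalized counts in Lcn10-KO and 665, 691 and 744 in WT (log2 fold change 1.02 ± 0.06 (SE), limma adjusted p = 1.04e-06), a larger change than that of any of the 35 members. The strain of the mice is not given, so strain background and loss of *Lcn10* cannot be told apart for *Nnt*, as for every other gene here. *Taldo1*, transaldolase of the pentose phosphate pathway, averaged 9498 ± 414 in Lcn10-KO and 11330.3 ± 338 in WT (SD, n = 3 each; limma adjusted p = 0.00578). Both stayed called without any 1 library. *Mthfd2*, of mitochondrial folate metabolism, and *Idh3a*, a subunit of the NAD-dependent isocitrate dehydrogenase, which does not make NADPH, had log2 fold changes of −0.23 and −0.22 (limma adjusted p = 0.0202 and 0.0237). The remaining gene called lower, *Mthfd1*, of cytosolic folate metabolism and named after its values were seen, averaged 1105 ± 30.5 in Lcn10-KO and 1301 ± 109 in WT (SD, n = 3 each; limma adjusted p = 0.0330), and was lost without any of the Lcn10-KO libraries and without WT replicate 1 or 3 (adjusted p of up to 0.132). *Mthfd2* was lost without any of the Lcn10-KO libraries and *Idh3a* without Lcn10-KO replicate 2 or 3, with adjusted p of up to 0.0981 and 0.115.

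On the side of superoxide production, 1 of 8 tested genes of the NADPH oxidase list was higher and 0 lower. This was *Rac2*, the small GTPase that activates the oxidase in phagocytes, with 3487, 3499.6 and 3402 normalized counts in Lcn10-KO and 3066, 3200.3 and 3170.3 in WT (log2 fold change 0.14 ± 0.04 (SE), limma adjusted p = 0.0488). Its call was lost without any of the Lcn10-KO libraries, without WT replicate 1 and without WT replicate 3 (adjusted p of up to 0.189). Of 18 genes in the list of selenoprotein synthesis and other selenoproteins, 0 were called by limma, and their median log2 fold change was 0.01.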

How the data were processed

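The deposited table holds 1 column per library. The submitters' processing notes name Salmon 0.11.2, STAR 2.6.1a, DESeq2, bcl2fastq and the build mm10. What each did, the annotation and the strand setting are not given. The authors deposited a signal, read counts scaled between libraries (normalized counts), of which 92.8% to 93.7% of those under 8 came out as whole reads within 0.1, too few for a test on read counts. Genes reaching 10 in 3 or more libraries were tested on log2(deposited value + 1), on which low genes change less than they do in the values themselves, with limma 3.58.1 in R 4.3.3 (mean-variance trend, robust estimation, genotype as the only term). P-values were adjusted over all genes tested. Between any 2 libraries the variance was at least 1.73 times that of counting. Same-numbered libraries did not deviate together (correlations 0.01 to 0.07). On simulated data for this comparison (12109 genes) the procedure recovered 18.0% of genes changed 1.1-fold, 72.0% at 1.25-fold and 96.0% at 1.5-fold. It made 7 false calls there, and 0 calls when no gene was changed. The simulation gave all genes and libraries the same spread beyond counting and held no library set apart like WT replicate 1. It may therefore overstate recovery in these data. The members and lists were chosen with earlier results of these data known. Members called, and the most abundant of each role, are given per library, with up to 4 called genes of each other list. Figures were drawn with matplotlib 3.10.9.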

Additional observations from a re-analysis of the deposited data

How the results depend on the processing

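Of 488 values of single members under the 14 alternatives, 440 kept their direction and their side of the threshold, 25 fell out of it, 10 came into it and 13 changed sign. In limma without the trend and without robust estimation 25 genes were called (12 higher and 13 lower) and 0 members (0 higher, 0 lower), 10 members having an unadjusted p under 0.05 there, and *Mgst1* had an adjusted p of 0.0939. Of the genes called in the other lists, only *Nnt* stayed called in that fit (adjusted p = 0.0108). *Abcc4*, *Gpx3*, *Glrx* and *Taldo1*, which kept their calls without any 1 library, had adjusted p of 0.0789, 0.0754, 0.101 and 0.101 there. With no filter on low values 3 members were called higher, and *Bach1* and *Rac2* were lost (limma adjusted p = 0.0568 and 0.0696). Members called lower numbered 2 with the filter of at least 50 and 2 with a pseudocount of 10, *Gclm* being added, and that filter also added *Gpx1* to the members called higher. The replicate block, a fit with the replicate number as a term although these numbers do not pair the libraries, called 1607 genes and 8 members, 3 of them lower (*Gclm* and *Txnrd1* added). *Rac2* was lost in that fit (limma adjusted p = 0.0630). Leaving out each library in turn gave 175 to 1664 genes called (91 to 810 higher, 84 to 854 lower) and 1 to 8 members (1 to 6 higher, 0 to 3 lower). The lowest count of members, only *Mgst1*, came on omitting the second or the third Lcn10-KO library. No member that changed sign was called in any of these fits. *Osgin1* was at −0.0094 under quantile normalization, and the other sign changes came on leaving out a library, over which the log2 fold changes ranged from −0.0400 to 0.0122 for *Keap1*, −0.0385 to 0.0382 for *Osgin1*, −0.0896 to 0.171 for *Nqo1*, −0.0327 to 0.0023 for *Idh2*, −0.0855 to 0.0146 for *Prdx6*, −0.0604 to 0.0122 for *Txn1*, −0.0683 to 0.0048 for *Txn2* and −0.0021 to 0.0388 for *Txnrd2*. The cause of these changes was not tested.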
